A study of Homo sapiens with 6 samples.

Results

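The enzymes described here join glucuronic acid or sulfate to small molecules, and 10 genes were taken by their symbols. The rule uses no measured value, but the list was drawn up with earlier results of these data known. UGDH supplies the sugar donor. UGT1A1, UGT1A6, UGT2B4, UGT2B7, UGT2B10 and UGT2B15 are glucuronosyltransferases, and SULT1A1, SULT1E1 and SULT2A1 are sulfotransferases. All 10 symbols were found among the 61541 genes of the count table. In the log2 TPM table, which lists fewer genes, 5 of the 10 were found, and they were the same 5 that had enough counts to be tested.

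Glucuronidation and sulfation are conjugation reactions by which hepatocytes make drugs, steroids, bile acids and bilirubin more soluble and ready for export. In glucuronidation, UDP-glucose is oxidized by UGDH to UDP-glucuronic acid in the cytosol, and the UGT enzymes of the endoplasmic reticulum pass the glucuronic acid to their substrates. In sulfation, the cytosolic SULT enzymes transfer sulfate from the donor PAPS. Several of these genes are known targets of the transcription factors NRF2, AHR, PXR, CAR and HNF4A in liver.

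The cells sequenced were luciferases-expressing HepG2 cells, a human hepatoblastoma line that carries 2 luciferase reporters on a mouse artificial chromosome: SLR3 under antioxidant response elements (AREs) and a TK promoter, and ELuc under the TK promoter alone. Sedanolide, a phthalide of celery oil, was given at 100 μM for 24 h to 3 libraries' cells, and 3 libraries came from control cells of the same line and medium. Sedanolide was dissolved in DMSO, and the sources used here do not say whether the control cells received DMSO. The sources do not say that libraries of a group came from separate experiments, so p-values measure the spread between these libraries, which may be technical.

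The libraries held 16420258 to 22940963 counts in control cells and 19027265 to 26714853 in sedanolide-treated cells. Of 8 hepatocyte markers, all were detected, and their summed level ranged from 29586 to 45562 CPM (counts scaled to library size) in control cells and from 21822 to 38532 in sedanolide-treated cells. Their log2 fold changes, sedanolide over control, ran from -0.64 (AFP) to 0.06 (APOA1), and APOA1 alone was above 0. The part of this in the results was not tested. Among markers of other cell types, COL1A2, VWF and CD3E were at 0 in every library. The summed level of 4 cholangiocyte markers was 268 to 325 CPM in control cells and 223 to 309 CPM in sedanolide-treated cells. For 3 endothelial markers it was 4.02 to 5.20 CPM and 3.89 to 5.29 CPM. The summed level of 4 fibroblast markers was 15.03 to 23.93 CPM in control cells and 5.376 to 11.38 CPM in sedanolide-treated cells, and that of 3 leukocyte markers was 8.84 to 14.1 CPM and 14.2 to 14.7 CPM. The fibroblast and leukocyte sums were each nearly that of a single gene, PDGFRB and CD68, since COL1A1, COL3A1 and PTPRC had at most 3 counts in a library. The part of either in the results was not tested. In such bulk libraries, fewer cells of a type and less RNA per cell cannot be told apart. A further difference between libraries followed the groups only in part. Component 1 of a principal component analysis held 56.1% of the variance. It set control 1, control 2 and sedanolide 3 (mitochondrial genes 1.43% to 2.15% of counts) apart from control 3, sedanolide 1 and sedanolide 2 (4.23% to 5.22%). These are called the first and the second side below, and they were defined from the expression values, since the labels name no batch.

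The comparison asks whether the conjugation enzymes differ between sedanolide-treated and control cells. Of the 14104 genes and reporters that passed the filter on low counts, 95 passed both thresholds (FDR 0.05 and 1.5-fold), or 0.674%. Of the 10 enzymes, 5 passed this filter and were tested, and 0 passed the thresholds. SULT2A1 came nearest, with lower levels in all 3 sedanolide libraries, and SULT1A1 was higher in all 3. In edgeR's quasi-likelihood test 2 of the 5, SULT1A1 and SULT2A1, had an unadjusted p under 0.05, as did 11.9% of all features. DESeq2 called 1 of the 5 (SULT2A1, where it called 2.33% of all features), and limma-trend called 0. The groups did not overlap in normalized CPM for these 2 enzymes, and they did not overlap for 18.3% of all features tested. The median log2 fold change was -0.04 over the 5 tested enzymes, which ranged from -0.74 to 0.64, and 0.01 over all features.

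**Figure D1:**
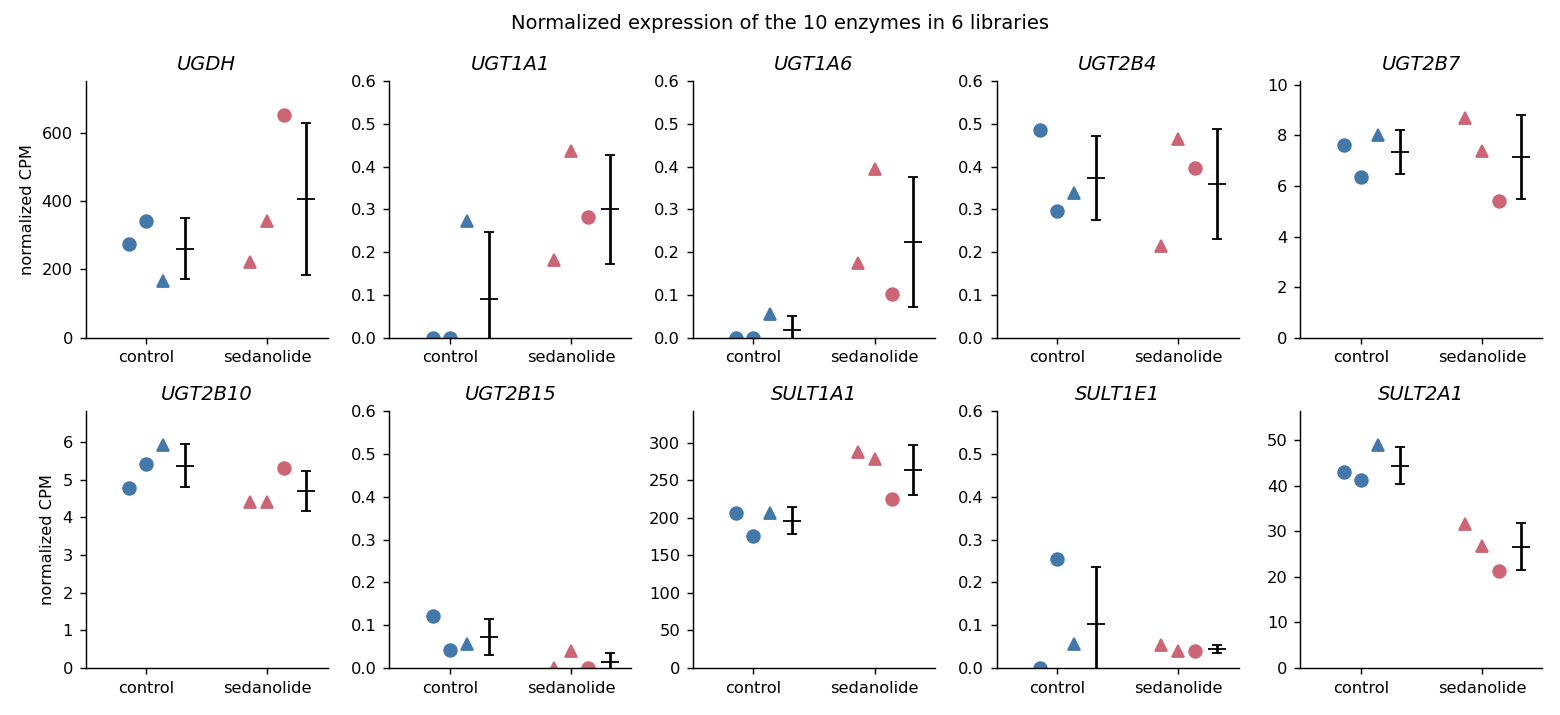
Normalized CPM (vertical axes, each starting at 0) of the 10 enzymes in control (blue) and sedanolide-treated (red) libraries. Each point is a library, with circles for control 1, control 2 and sedanolide 3 and triangles for the other 3, and bars give the mean ± SD (n = 3), with a lower end below 0 not drawn. The 3 sedanolide libraries lie above the controls for SULT1A1 and below them for SULT2A1, and UGT1A1, UGT1A6, UGT2B4, UGT2B15 and SULT1E1 stay under 0.6 CPM.

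UGDH, which makes the glucuronic acid donor, spans chr4:39498755-39528311 on the minus strand of GRCh38 (ENSG00000109814). Its normalized level was 275, 342 and 165 CPM in controls 1 to 3 and 222, 342 and 654 CPM in sedanolide 1 to 3. The groups overlapped, with sedanolide 3 alone above every control. The log2 fold change was 0.64 (SE 0.42; adjusted p = 0.603 by edgeR with Benjamini-Hochberg adjustment), which was within the spread between libraries. On each side of component 1 the sedanolide libraries were above the controls. The mean log2 difference was 1.09 on the first side, with 2 controls and sedanolide 3, and 0.74 on the second, with 1 control and 2 sedanolide libraries. When the fit included the side, UGDH passed both thresholds (log2 fold change 0.93, adjusted p = 0.0187 by edgeR), as did 2.70% of all features. The side came from these same expression values, so this call is not separate support. The same holds below for every other call with the side added. It also holds for differences within a side, where 1 of the groups has a single library. Without sedanolide 3 the log2 fold change was 0.11. In the TPM table, UGDH had 151, 213 and 90.7 TPM in controls and 111, 179 and 371 TPM in sedanolide libraries, with a log2 fold change of 0.44 (SE 0.47; adjusted p = 0.744 by limma), and of -0.022 without sedanolide 3. UGDH shared 0 of its 4694 transcript stretches of 100 bases with another gene. An antisense gene, UGDH-AS1, overlaps 513 of its exon bases, but held 508 counts against 45002 for UGDH over the 6 libraries.

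The UGT1A enzymes are read from a single locus of chromosome 2, in which each has its own first exon and all use the same last exons. UGT1A1 (ENSG00000241635, chr2:233760270-233773300) conjugates bilirubin, and UGT1A6 (ENSG00000167165, chr2:233691607-233773300) conjugates small phenols. Both lie on the plus strand and end at the same base. The last 741 coding bases are identical between them. The sequences below, read from the GRCh38 genome with GENCODE 44 coding exons, show the border, in lower case where each gene has its own exon and in capitals from the first base of the common part. They are bases 817 to 906 of the UGT1A1 coding sequence and 814 to 903 of that of UGT1A6.
UGT1A1: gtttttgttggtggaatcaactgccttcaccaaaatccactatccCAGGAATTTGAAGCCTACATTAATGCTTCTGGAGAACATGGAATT
UGT1A6: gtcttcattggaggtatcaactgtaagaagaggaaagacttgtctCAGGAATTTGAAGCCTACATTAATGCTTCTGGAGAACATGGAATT

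Reads within the capitals cannot be given to 1 UGT1A gene by sequence. Of the transcript stretches of 100 bases, 49.0% in UGT1A1 and 38.9% in UGT1A6 also occurred in another gene, so the division by RSEM is uncertain. UGT1A1 had expected counts of 0, 0 and 4.81 in controls and 3.40, 11.3 and 7.14 in sedanolide libraries. UGT1A6 had 0, 0 and 1 in controls and 3.23, 10.2 and 2.57 in sedanolide libraries. An observed 0 is compatible with as many as 3 counts, a limit that covers counting error only, and neither gene passed the filter on low counts. With the filter set at 1 count, the adjusted p by edgeR was 0.707 for UGT1A1 and 0.354 for UGT1A6. Counts summed over all 9 UGT1A genes do not depend on the division. The sums were 5, 6 and 7 counts in controls and 14.99, 30.0 and 23.4 in sedanolide libraries, with no overlap between groups. In normalized CPM, 8.69% of all features were higher without overlap. In normalized CPM the sum was 0.318 ± 0.0719 in controls and 0.964 ± 0.179 in treated cells (SD, n = 3), with a log2 fold change of 1.60 (SE 0.33). This did not pass the FDR (adjusted p = 0.109 by edgeR), and 0.674% of the table with the sums did. It passed in a fit with the side added (1.53, adjusted p = 0.0492 by edgeR). The difference was 1.74 within the first side and 1.29 within the second. Each library thus held at most 30.0 counts for the whole locus.

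The UGT2B genes lie near one another on chromosome 4 without overlapping, each with its own full set of exons. UGT2B7, which conjugates morphine and many steroids (ENSG00000171234, chr4:69051363-69112987, plus strand), had 7.63, 6.35 and 8.03 CPM in controls and 8.71, 7.38 and 5.39 CPM in sedanolide libraries. The groups overlapped, with the highest and the lowest value both in the sedanolide group. Its log2 fold change was -0.04 (SE 0.21; adjusted p = 0.956 by edgeR), and it was 0.04 without control 3 and 0.13 without sedanolide 3. In the TPM table, where the median log2 fold change over all rows was -0.07, the order was different. UGT2B7 had 9.29, 9.53 and 9.09 TPM in controls and 8.65, 7.80 and 7.16 TPM in sedanolide libraries, which did not overlap, with a log2 fold change of -0.22 (SE 0.13; adjusted p = 0.570 by limma). UGT2B10, an enzyme of N-glucuronidation of amines (ENSG00000109181, chr4:68815994-68832023, plus strand), had 4.79, 5.42 and 5.93 CPM in controls and 4.41, 4.40 and 5.31 CPM in sedanolide libraries. The groups overlapped through sedanolide 3. Its log2 fold change was -0.19 (SE 0.16; adjusted p = 0.679 by edgeR).

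UGT2B4, an enzyme of bile acid glucuronidation (ENSG00000156096, chr4:69480165-69526014, minus strand), had 8, 7 and 6 counts in controls and 4, 12 and 10 in sedanolide libraries. UGT2B15, an enzyme of androgen glucuronidation (ENSG00000196620, chr4:68646597-68670652, minus strand), had 2, 1 and 1 counts in controls and 0, 1 and 0 in sedanolide libraries. Both were below the filter on low counts. With the filter set at 1 count, the adjusted p by edgeR was 0.995 for UGT2B4 and 0.707 for UGT2B15, and a difference was not detectable at these counts. UGT2B15 also shared 12.4% of its 100-base stretches with UGT2B17, whereas UGT2B4 and UGT2B7 shared none and UGT2B10 4.39%. The sum of the 7 UGT2B genes was 13.2 ± 1.14 CPM in controls and 12.3 ± 1.10 CPM in treated cells (SD, n = 3), with a log2 fold change of -0.11 (SE 0.14; adjusted p = 0.786 by edgeR).

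SULT1A1, the main phenol sulfotransferase of liver (ENSG00000196502, chr16:28605196-28614279, minus strand), had 207, 175 and 206 CPM in controls and 288, 278 and 225 CPM in sedanolide libraries. The sedanolide libraries were all higher, sedanolide 3 by the smallest margin, and 8.69% of all features were higher without overlap. The log2 fold change was 0.43 (SE 0.14; adjusted p = 0.293 by edgeR), below the fold change threshold. The mean log2 difference was 0.24 within the first side of component 1 and 0.46 within the second. In the TPM table SULT1A1 had 237, 218 and 217 TPM in controls and 275, 288 and 261 TPM in sedanolide libraries, again with no overlap, and a log2 fold change of 0.29 (SE 0.10; adjusted p = 0.325 by limma).

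SULT1A1 has near-identical relatives on chromosome 16, SULT1A2 and the dopamine sulfotransferases SULT1A3 and SULT1A4. Each has 888 coding bases, of which 96.8% are identical to SULT1A1 in SULT1A2 and 94.5% in SULT1A3. SULT1A3 and SULT1A4 are identical over all 888. Bases 190 to 279 are shown because they hold many of the differences by which reads can be told apart. They were read from GRCh38 with GENCODE 44 exons, and capitals mark bases that differ from SULT1A1, 3 in SULT1A2 and 16 in both SULT1A3 and SULT1A4.
SULT1A1: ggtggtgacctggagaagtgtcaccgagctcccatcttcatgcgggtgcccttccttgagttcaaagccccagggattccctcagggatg
SULT1A2: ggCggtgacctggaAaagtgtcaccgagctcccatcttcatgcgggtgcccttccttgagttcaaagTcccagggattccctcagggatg
SULT1A3: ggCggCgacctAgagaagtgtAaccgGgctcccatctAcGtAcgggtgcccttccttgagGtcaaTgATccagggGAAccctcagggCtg
SULT1A4: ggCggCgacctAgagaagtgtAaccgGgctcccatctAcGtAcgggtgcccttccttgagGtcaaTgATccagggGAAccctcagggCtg

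The share of transcript stretches of 100 bases that also occurred in another gene was 19.3% for SULT1A1, 79.6% for SULT1A3 and 95.6% for SULT1A4. RSEM gave SULT1A4 20.9% of the counts of the pair in control 1 and 27.1% in sedanolide 1, but 0.786% to 1.60% in the other 4 libraries. The pair was therefore summed, a choice made after this division had been seen. The sum was 139, 112 and 168 CPM in controls and 374, 346 and 256 CPM in sedanolide libraries, all higher, as were 8.69% of all features. The log2 fold change was 1.22 (SE 0.21), or 2.33-fold, and missed the FDR (adjusted p = 0.0625 by edgeR). The pair passed in DESeq2 (adjusted p = 6.04e-06), in edgeR with all genes of at least 1 count kept (adjusted p = 0.00506), in a fit with the side added (1.06, adjusted p = 0.00112 by edgeR) and without sedanolide 3 (1.37, adjusted p = 0.0227 by edgeR). Its mean log2 difference was 1.04 within the first side and 1.10 within the second. The sum over SULT1A1 to SULT1A4 was 352 ± 43.96 CPM in controls and 611 ± 96.1 CPM in treated cells (SD, n = 3), with a log2 fold change of 0.79 (SE 0.16; adjusted p = 0.116 by edgeR). SULT1A2 had 16.9 ± 0.517 CPM in controls and 21.4 ± 0.535 CPM in sedanolide-treated cells, a log2 fold change of 0.35 (SE 0.11; adjusted p = 0.273 by edgeR).

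**Figure D2:**
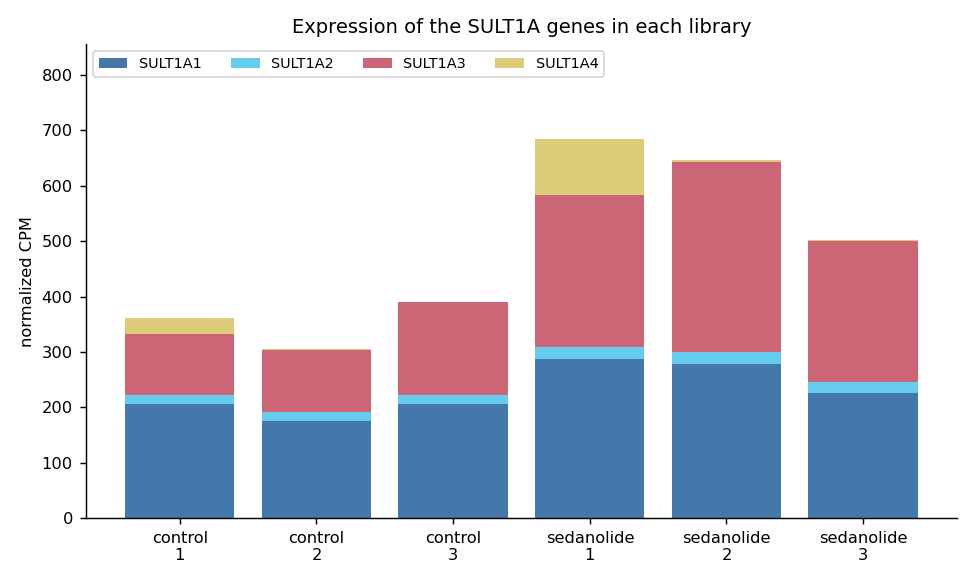
Normalized CPM of SULT1A1, SULT1A2, SULT1A3 and SULT1A4, stacked in each library (vertical axis from 0). The stacks are higher in all 3 sedanolide libraries, and the SULT1A4 segment is visible mainly in control 1 and sedanolide 1, where RSEM gave it 20.9% and 27.1% of the pair's counts.

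SULT1E1, the estrogen sulfotransferase (ENSG00000109193, chr4:69841212-69860145, minus strand), had 0, 6 and 1 counts in controls and 1, 1 and 1 in sedanolide libraries. It was below the filter on low counts, and 5 of its 6 values were at or under the floor of 3 counts. The adjusted p by edgeR was 0.707 with the filter set at 1 count.

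SULT2A1, which sulfates DHEA and bile acids (ENSG00000105398, chr19:47870467-47886315, minus strand), had 43.0, 41.1 and 48.9 CPM in controls and 31.7, 26.7 and 21.3 CPM in sedanolide libraries. All 3 sedanolide libraries were below every control, as were those of 9.66% of all features. The log2 fold change was -0.74 (SE 0.17), or 1.67-fold lower, and missed the FDR (adjusted p = 0.147 by edgeR). The mean log2 difference was -0.98 within the first side of component 1 and -0.75 within the second. SULT2A1 passed both thresholds in DESeq2 (-0.74, adjusted p = 0.00525). With the side as a term SULT2A1 passed as well (-0.86, adjusted p = 0.00358 by edgeR), which is not separate support. It also passed in the TPM table, where it had 35.3, 37.1 and 38.2 TPM in controls and 22.9, 19.97 and 18.0 TPM in sedanolide libraries (log2 fold change -0.84, SE 0.12, adjusted p = 0.0464 by limma), and where 0.582% of 11006 rows passed. Leaving out any 1 of the 6 libraries from the TPM table ended that call, with adjusted p between 0.0650 and 0.304 by limma. The median log2 fold change was -0.07 over all rows of the TPM table and 0.01 over all features of the count fit. SULT2A1 shared no 100-base stretch with another gene.

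The 250 bases before the SULT2A1 start are shown because SULT2A1 had the lowest log2 fold change of the 5 tested enzymes. The sequence is RefSeq's for GRCh38.p14, chr19:47886316-47886565 on the minus strand, 5′ to 3′. None of 3 motifs searched on both strands was found in it, so no letter is in capitals.
SULT2A1 promoter: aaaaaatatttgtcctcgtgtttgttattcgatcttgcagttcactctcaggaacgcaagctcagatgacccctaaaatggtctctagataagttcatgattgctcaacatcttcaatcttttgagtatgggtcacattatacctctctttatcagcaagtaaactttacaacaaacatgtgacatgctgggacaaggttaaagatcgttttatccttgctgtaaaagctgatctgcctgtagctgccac

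Promoter entries of RefSeq were matched for 8 of the 10 enzymes, not for UGT2B4 and SULT1A1, and UGT1A6 had 2 starts. The motifs were the ARE core TGACNNNGC (found before 10.9% of 35116 starts), the AHR core GCGTG (32.2%) and the HNF4 core TGNACTTTG (0.940%). The ARE core occurred 98 to 90 bases before the second UGT1A6 start (tgacacggc) and, on the opposite strand, 213 to 205 bases before that of UGT2B10. UGT1A6 held the AHR core before its first start, and UGT2B7 the HNF4 core 71 to 63 bases before its start. No 2 matches overlapped. UGDH, UGT1A1, UGT2B15, SULT1E1 and SULT2A1 held none of these letters within the window. These matches describe the sequence and are not evidence of a bound factor.

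Compared per length, the 5 enzymes of the TPM table differed widely in level. In control cells the mean level ran in the order SULT1A1 (224 ± 11.5 TPM), UGDH (152 ± 61.2 TPM), SULT2A1 (36.9 ± 1.46 TPM), UGT2B7 (9.30 ± 0.220 TPM) and UGT2B10 (3.33 ± 0.333 TPM; SD, n = 3), and no neighbours overlapped. In sedanolide-treated cells the order was the same, with SULT1A1 at 274 ± 13.5 TPM and UGDH at 220 ± 135 TPM, which overlapped. SULT2A1 followed at 20.3 ± 2.47 TPM, UGT2B7 at 7.87 ± 0.747 TPM and UGT2B10 at 3.11 ± 0.323 TPM, each apart from its neighbours.

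For each tested enzyme, the genes with the most similar profile were taken as those with the smallest root-mean-square difference of centred log2 CPM over the 6 libraries. For UGDH these were GSR (0.118), which reduces oxidized glutathione, FAM156B (0.122) and DLX2 (0.142), where UGDH itself had an SD of 0.67. SULT1A1 was nearest to PDCD11 (0.0227), FAM98A (0.0289) and ARIH2 (0.0378), and SULT2A1 to ADGRV1 (0.0369), MAP2K5-DT (0.0558) and AGR2 (0.0691). UGT2B7 was nearest to SCAMP5, SLC44A3 and UBE2L6 (0.0448 to 0.0495), and UGT2B10 to TRERF1, UBASH3B and ENSG00000279407 (0.0270 to 0.0518). With 6 libraries and 14104 features, such values are a description.

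The other genes of both pathways were grouped by role, 64 in all, of which 43 were tested. One of them passed both thresholds, ABCC3, an exporter of glucuronides to the blood side of the hepatocyte, at 12.2 ± 0.557 CPM in controls and 42.5 ± 3.61 CPM in treated cells (SD, n = 3; log2 fold change 1.80, SE 0.12, adjusted p = 0.00324 by edgeR). The other 3 conjugate transporters were also higher in all 3 sedanolide libraries without passing, and 8.69% of all features were higher without overlap. ABCG2 had a log2 fold change of 0.78 (SE 0.34), ABCC2, the canalicular exporter of conjugated bilirubin, of 0.61 (SE 0.18), and ABCC4 of 0.29 (SE 0.10), with adjusted p between 0.255 and 0.428 by edgeR. The median of the 4 was 0.69. ABCG2 had few counts, 6, 8 and 6 in controls and 10, 20 and 12 in sedanolide libraries.

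Of 16 other UGT genes, 4 had no count in any library, and 1 was tested. This was UGT2A3, at 47.8 ± 11.3 CPM in controls and 40.8 ± 11.8 CPM in treated cells (SD, n = 3), with overlapping groups and a log2 fold change of -0.23 (SE 0.25; adjusted p = 0.754 by edgeR). Of 7 genes that supply UDP-sugars or split glucuronides, 0 passed and no groups were without overlap (median log2 fold change -0.13). UXS1, which turns UDP-glucuronic acid into UDP-xylose, had 0.26 (SE 0.16), SLC35A1, a transporter of CMP-sialic acid, -0.22 (SE 0.15), and SLC35D1, which carries UDP-glucuronic acid into the endoplasmic reticulum, -0.20 (SE 0.33). Of 10 other SULT genes, 6 were tested, and 0 passed (median 0.34). Besides SULT1A3 (1.17, SE 0.21, adjusted p = 0.0774 by edgeR) and SULT1A4 (1.75, SE 1.66), the value furthest from 0 was that of SULT1C4, at 4.26 ± 0.577 CPM in controls and 2.39 ± 0.381 CPM in sedanolide-treated cells (-0.83, SE 0.20, adjusted p = 0.162 by edgeR). SULT1C4 and SULT2A1 were lower in all 3 sedanolide libraries, as were 9.66% of all features. SULT1A1, SULT1A2 and SULT1A3 were higher in all 3, as were 8.69% of all features. None of these genes passed the FDR in the edgeR fit without a side term.

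Of 10 genes that make, move or recycle PAPS and sulfate, 9 were tested, 0 passed, and 3 were lower without overlap, as were 9.66% of all features (median -0.09). The sulfate transporters SLC26A2 (-0.46, SE 0.17), SLC26A6 (-0.39, SE 0.12) and SLC26A1 (0.31, SE 0.16) had the values furthest from 0, with adjusted p between 0.252 and 0.5004 by edgeR. The 5 sulfatases and their activators had a median of -0.33, and 0 passed. ARSB had -0.64 (SE 0.44), steroid sulfatase STS 0.62 (SE 0.40) and SUMF1 -0.34 (SE 0.31), all with overlapping groups. STS had few counts, 8, 8 and 11 in controls and 8, 22 and 22 in sedanolide libraries.

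**Figure D3:**
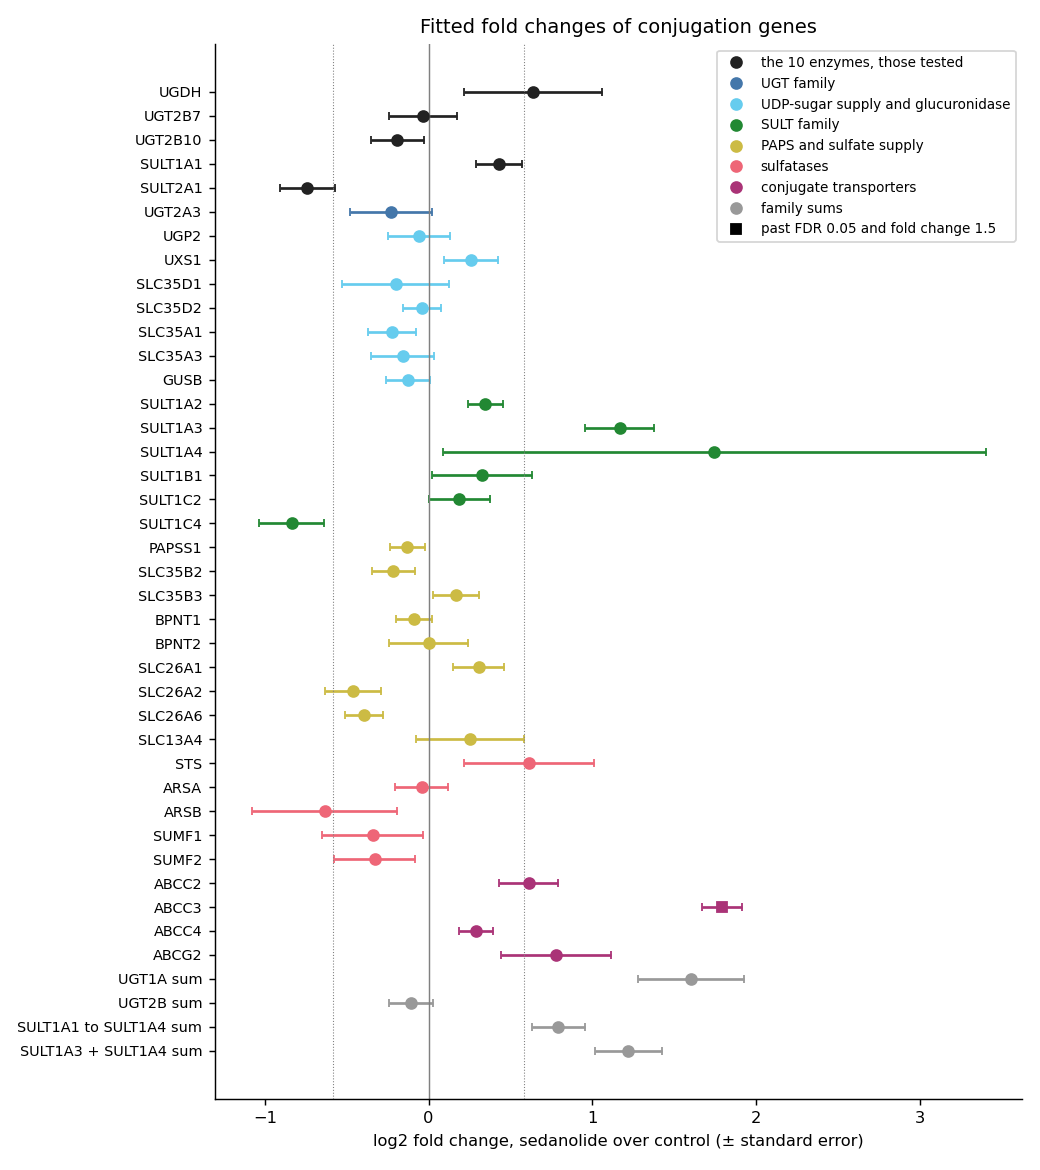
Fitted log2 fold changes (horizontal axis, sedanolide over control, bars ± SE) of the tested enzymes, the other pathway genes (without transcription factors) and the family sums, coloured by group, with dotted lines at a fold change of 1.5 in either direction. ABCC3, the square, alone passed both thresholds, SULT2A1 lies beyond the line on the lower side, and UGDH lies beyond it on the higher side with a wide SE.

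Among edgeR with other scalings or filters, DESeq2, limma-trend, a replicate term and a side term, the log2 fold change of SULT2A1 stayed between -0.86 and -0.73, that of SULT1A1 between 0.35 and 0.44, and that of UGDH between 0.53 and 0.93. When each library was left out in turn, these ranges were -0.89 to -0.60, 0.35 to 0.53 and 0.11 to 0.93.

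**Figure D4:**
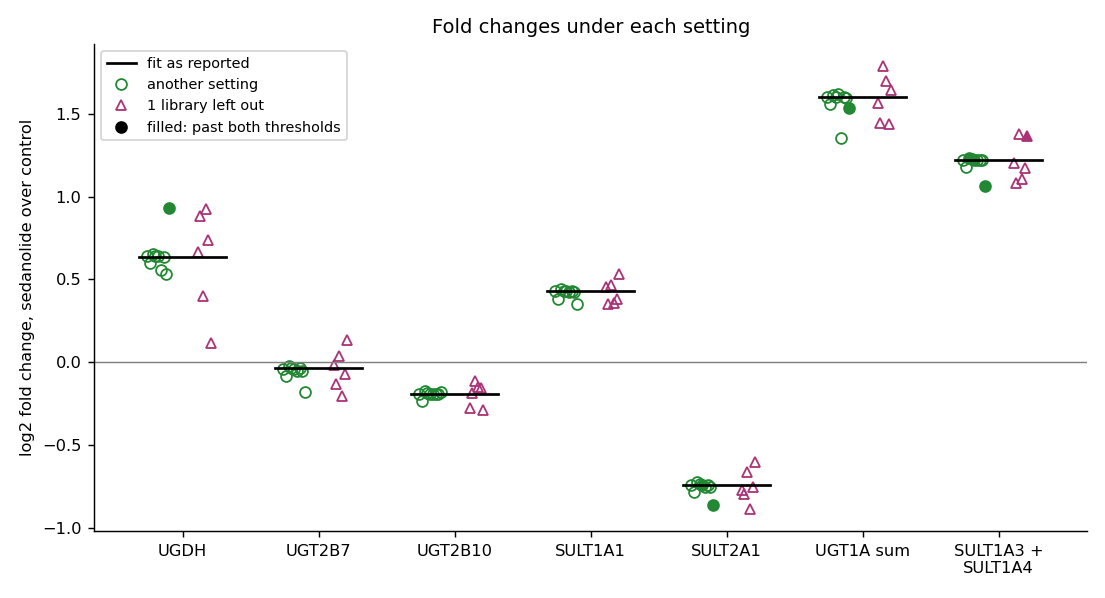
Log2 fold change (vertical axis, sedanolide over control) of the 5 tested enzymes and 2 family sums in the fit as reported (line), under each other setting (circles) and with 1 library left out (triangles), filled where both thresholds were passed. The points of SULT2A1 all lie below 0 and those of SULT1A1 all above 0, those of UGT2B7 fall on both sides of 0, and those of UGDH reach down to 0.11.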

How the data were processed

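RNA-seq of luciferases-expressing HepG2 cells was analyzed (3 control and 3 sedanolide libraries, grouped by the sample titles). Polyadenylated RNA was captured, and directional libraries were sequenced as paired-end reads. The authors used FastQC and Trimmomatic on the reads, STAR for alignment to GRCh38 and RSEM for quantification, and the versions and the annotation release are not given in the sources used here. One deposited table holds the authors' expected counts, not normalized. The other deposited table holds log2 values of TPM with 1 added, for 11006 rows, and its filter is not stated.

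Expected counts were rounded and fitted in R 4.3.3 with edgeR 4.0.16 (filterByExpr, TMM, robust quasi-likelihood test), with no term beside the condition. A call needed a fold change of 1.5 and an FDR of 0.05, adjusted by Benjamini-Hochberg over all features tested. DESeq2 (1.42.0 here), the method named by the study, was an alternative, and the log2 TPM table was fitted with limma 3.58.1 with a trend. DESeq2 as run here called 130 features higher and 198 lower, more than the study reported at the same thresholds. Its calls here are therefore not those of the study. Family sums replaced the UGT1A, UGT2B and SULT1A genes in the table. On simulated data of 13896 genes, edgeR recovered 74 of the 98 that were given a 2-fold change and 92 of the 94 given a 4-fold change, beside 5 false calls. The simulated counts held no difference between libraries such as component 1. The recovered shares therefore do not carry over to the real libraries. Depth was 16420258 to 26714853 counts per library. Positions and transcripts came from GENCODE 44, which held 61369 of the gene identifiers, and promoters from RefSeq. Alternatives were other scalings, filters and tests, a replicate term, a term for the side of component 1, and leaving out each library. The enzymes, the pathway lists, written from general knowledge, and the tests were chosen with earlier results of these data known. Named genes were the 10 enzymes, list genes past both thresholds, the 3 list genes with the largest absolute log2 fold change, and the 3 genes nearest in profile to each tested enzyme. Others named (SULT1A2, ABCC4, PAPSS1, PAPSS2, NR1I2, NFE2L2, HNF4A) were chosen after their values were seen. Protein sequences were not used here. One gene of the transcription factor list and one motif are not reported here, and the gene stays in all fits and counts.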

Additional observations from a re-analysis of the deposited data

How the results depend on the processing

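Of 75 log2 fold changes recomputed from the counts for the 5 tested enzymes, 70 kept their direction and their side of the thresholds, 3 came to pass both thresholds and 2 turned in direction. The latter were those of UGT2B7 without control 3 (0.04) and without sedanolide 3 (0.13), within a range of -0.20 to 0.13 over libraries left out. In the TPM table the direction turned for UGDH without sedanolide 3 (-0.022), within a range of -0.022 to 0.85.

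The number of the 10 enzymes that passed was 1 with DESeq2 (SULT2A1), 2 in a fit that included the side of component 1 (UGDH and SULT2A1), and 0 under every other setting for the counts, including each library left out. Among the other pathway genes the number was 2 with all genes of at least 1 count and 2 with DESeq2 (SULT1A3 and ABCC3 in both), 4 with the side term (SULT1A3, SULT1C4, ABCC2 and ABCC3) and 0 to 2 with a library left out. Over the whole table these settings called 158 of 26457, 328 of 14104 and 381 of 14104 features, and 0 to 136 with a library left out. It was 0 without control 1 and 0 without sedanolide 2, where no gene of the whole table passed (1067 and 889 at an unadjusted p under 0.05 in edgeR).

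The SULT1A1 to SULT1A4 sum passed with at least 1 count (0.81), DESeq2 (0.79) and the side term (0.68), and over libraries left out it ranged from 0.70 to 0.92, passing without sedanolide 3. The SULT1A3 and SULT1A4 sum passed with the same settings (1.24, 1.22 and 1.06), and ranged from 1.08 to 1.38. With their read-through genes added, also a later choice, it was 1.20 (adjusted p = 0.0511 by edgeR) and passed with median-of-ratios scaling (1.20), library size only (1.16), at least 1 count (1.22), DESeq2 (1.20), no robust prior (1.20) and the side term (1.06), with a range of 1.08 to 1.34. The UGT1A sum passed with the side term alone (1.53), and ranged from 1.44 to 1.79. The cause of these moves was not tested.

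The sources used here do not say whether the replicate numbers pair the libraries. Same-numbered deviations from the group means correlated at -0.133, -0.295 and -0.730, and no control correlated best with its own number. Such deviations also carry the difference along component 1, so these values cannot decide whether the libraries were paired. With the replicate number as a block, 0 of 14104 features passed in edgeR (772 at an unadjusted p under 0.05), so that 0 pathway genes passed, and 0 enzymes passed for the log2 TPM values, as was also the case for those values without any 1 library. Depth limited UGT1A1, UGT1A6, UGT2B4, UGT2B15 and SULT1E1, which had at most 12 counts in a library.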

Other observations

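Of 12 genes for transcription factors known to act on UGT and SULT genes, 11 were tested and 0 passed both thresholds (median log2 fold change -0.05). AHR, the dioxin receptor, had 11.02 ± 3.17 CPM in controls and 8.26 ± 3.60 CPM in treated cells (SD, n = 3), with a log2 fold change of -0.41 (SE 0.34) and overlapping groups. The bile acid receptor gene NR1H4 had 0.31 (SE 0.27). FOXA1, a factor of liver development, had 52.8 ± 0.838 CPM in controls and 43.0 ± 1.45 CPM in sedanolide-treated cells, with a log2 fold change of -0.30 (SE 0.10; adjusted p = 0.310 by edgeR). Its groups did not overlap, and 9.66% of all features were lower without overlap. NR1I2, which encodes PXR, was higher in all 3 sedanolide libraries, as were 8.69% of all features, with a log2 fold change of 0.28 (SE 0.12; adjusted p = 0.428 by edgeR). NFE2L2, which encodes NRF2, had -0.09 (SE 0.15) and HNF4A -0.22 (SE 0.15). PAPSS2, an enzyme of PAPS synthesis, was below the filter on low counts, at 0.360 ± 0.183 CPM in controls and 0.286 ± 0.142 CPM in sedanolide-treated cells, whereas PAPSS1 had 49.9 ± 2.31 and 45.6 ± 1.97 CPM.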
